A study of Mus musculus with 8 samples.

Results

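Nuclear genes for the subunits of the 5 oxidative phosphorylation complexes were followed across 8 libraries of messenger RNA from mouse jejunal crypts. The genes were taken by name, as symbols beginning with Ndufa, Ndufb, Ndufc, Ndufs, Ndufv, Uqcr, Cox4 to Cox8 or Atp5, plus Sdha to Sdhd, and kept where FPKM reached 1 in 2 or more libraries. FPKM is the number of sequenced fragments scaled for transcript length and for the size of the library. Of 23951 symbols in the table, 92 matched by name and 85 passed the minimum. Of these 85 genes, 76 encode subunits, with 37 in complex I, 4 in complex II, 8 in complex III, 13 in complex IV and 14 in complex V. The other 9 are no subunits (Ndufaf1 to Ndufaf7, which help to assemble complex I, and Atp5s and Atp5sl) and were kept apart. The minimum left out 7 symbols, Atp5g2, Cox4i2, Cox6a2, Cox7b2, Cox8b, Cox8c and Ndufa4l2. The gene nearest to it on the inside was Ndufaf5, with a second-highest FPKM of 5.69, and on the outside Cox6a2, with 0.947.

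Every mouse carried one conditional BRAF-V600E allele, written f/+, and Villin-CreER(T2), a recombinase made in the intestinal epithelium and switched on by tamoxifen. The BRAF group (3 libraries) had no further deletion, SMAD4KO_BRAF (3 libraries) was also Smad4 f/f, and CDX2KO_BRAF (2 libraries) was also Cdx2 f/f. Tamoxifen was injected on 4 consecutive days and crypts were isolated 1 day after, so that no group lacked the activated kinase. Libraries carry the number of their column, which starts from 0, and values of a group are listed in that order.

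Complexes I to IV form the respiratory chain of the inner mitochondrial membrane. Complexes I and II pass electrons from NADH and succinate to ubiquinone, complex III hands them to cytochrome c, and complex IV gives them to oxygen. Complexes I, III and IV pump protons, and complex V, the ATP synthase, uses the proton gradient to make ATP. Most subunits are encoded in the nucleus and a few in mitochondrial DNA, and those few were not analysed here. In the intestine, crypt base cells and absorptive enterocytes are known to differ in their use of glycolysis and respiration.

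The targeted genes gave a mixed check of the labels. Smad4 had an FPKM of 43.9 ± 2.62 (SD, n = 3) in BRAF and 8.93 ± 1.61 (n = 3) in SMAD4KO_BRAF. Cdx2 stood at 75.6 ± 9.99 (n = 3) in BRAF. In the libraries labelled CDX2KO_BRAF it stood at 138 ± 24.0 (n = 2), a rise of log2 0.86 ± 0.18 (SE, limma adjusted p = 0.0213). That goes against the label, although FPKM over a whole gene need not show the loss of some exons. The libraries are therefore called by their label throughout, and every direction below that involves them is one between labelled libraries. Between 10924 and 11570 genes per library reached an FPKM of 1. The crypt base markers Lgr5, Olfm4, Ascl2, Smoc2 and Axin2 summed to an FPKM of 185.4 in BRAF library 0, the lowest, and 529.6 in SMAD4KO_BRAF library 1, the highest, and none of them was at 0 in any library. Markers of differentiated enterocytes were also found in every library, with sums from 3927 to 29900. In such bulk RNA, fewer cells of a type and less RNA per cell cannot be told apart. BRAF library 0 and SMAD4KO_BRAF library 0 came from male mice by their Y-linked genes, and the other 6 from females.

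The stretch before the start site is shown for the tissue-type pairs of complex IV on which the results turn, and for 2 subunit genes that hold a motif of nuclear respiratory factor 1. Cox7a1 and Cox6b2 are tissue-restricted isoforms, and Cox7a2 and Cox6b1 are their widely expressed partners. Sdhb encodes the iron-sulphur subunit of complex II and Ndufa6 an accessory subunit of complex I. Each run is the 250 bases before the RefSeq start on GRCm38.p6, printed in the direction of transcription, with matches to the motifs searched in capitals.
Cox7a1 (chr7:30183921-30184170, + strand): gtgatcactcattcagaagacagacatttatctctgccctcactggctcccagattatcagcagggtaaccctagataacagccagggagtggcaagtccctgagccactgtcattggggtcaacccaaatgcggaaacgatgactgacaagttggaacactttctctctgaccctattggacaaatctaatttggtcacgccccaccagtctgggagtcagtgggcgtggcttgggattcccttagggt
Cox7a2 (chr9:79759854-79760103, - strand): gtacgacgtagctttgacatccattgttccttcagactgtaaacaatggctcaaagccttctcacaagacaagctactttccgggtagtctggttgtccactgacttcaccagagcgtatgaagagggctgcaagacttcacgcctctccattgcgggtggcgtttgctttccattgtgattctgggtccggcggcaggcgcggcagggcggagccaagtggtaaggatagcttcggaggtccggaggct
Cox6b2 (chr7:4753095-4753344, - strand): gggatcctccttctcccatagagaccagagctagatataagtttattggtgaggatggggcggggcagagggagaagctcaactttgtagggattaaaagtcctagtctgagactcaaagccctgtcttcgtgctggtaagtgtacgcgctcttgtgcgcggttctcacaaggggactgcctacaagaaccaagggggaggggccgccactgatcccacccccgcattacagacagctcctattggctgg
Cox6b1 (chr7:30626115-30626364, - strand): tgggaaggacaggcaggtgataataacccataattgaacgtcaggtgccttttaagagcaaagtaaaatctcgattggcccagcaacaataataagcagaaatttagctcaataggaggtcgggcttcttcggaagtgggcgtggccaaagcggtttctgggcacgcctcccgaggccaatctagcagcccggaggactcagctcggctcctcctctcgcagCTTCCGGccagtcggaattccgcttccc
Sdhb (chr4:140961021-140961270, + strand): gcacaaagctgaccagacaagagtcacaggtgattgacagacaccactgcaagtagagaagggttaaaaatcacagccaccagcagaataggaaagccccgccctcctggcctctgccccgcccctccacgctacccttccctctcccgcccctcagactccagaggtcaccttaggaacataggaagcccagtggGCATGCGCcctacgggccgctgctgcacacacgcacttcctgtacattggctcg
Ndufa6 (chr15:82354292-82354541, - strand): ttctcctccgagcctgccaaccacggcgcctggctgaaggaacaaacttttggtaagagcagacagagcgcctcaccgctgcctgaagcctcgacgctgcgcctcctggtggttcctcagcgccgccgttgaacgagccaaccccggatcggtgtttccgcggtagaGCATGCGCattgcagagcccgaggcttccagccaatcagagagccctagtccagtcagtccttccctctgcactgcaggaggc
Of the 85 genes, 73 had an entry by symbol in the RefSeq promoter table. The letters GCATGCGC, bound by NRF1, were sought on both strands, as were CCGGAAG, bound by ETS factors such as GABP, and AAGATGGC, bound by YY1. A gene was counted if any of its stretches in the table held the letters. NRF1 letters were found for 8 of the 73 genes (11.0%) and for 692 of all 27025 genes (2.56%). ETS letters were found for 13 of 73 (17.8%), against 7.83% of all, and YY1 letters in 2 of 73 (2.74%), against 1.83%. At least 1 of the motifs was in 20 of 73 (27.4%), against 11.49% of all. By complex, that share was 6 of 33 genes in complex I, 2 of 3 in complex II, 2 of 5 in complex III, 2 of 11 in complex IV and 5 of 13 in complex V. The stretches of Cox7a1, Cox7a2 and Cox6b2 held none of these letters. That of Cox6b1 held the ETS letters, as their reverse complement in the printed run, 28 bases before the start. Sdhb and Ndufa6 held the NRF1 letters at 54 and 83 bases before it. The 27025 genes were not filtered by FPKM, as the 73 had been, so the shares are not matched for expression. These matches describe letters in a short window and show no binding.

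Levels differed widely within each complex. FPKM is scaled for length, so genes can be set side by side, but only roughly. Over the 8 libraries, the median of the subunits' mean FPKM was 133.9 in complex I, 217.3 in complex II, 305.2 in complex III, 286.0 in complex IV and 314.8 in complex V. In complex I the range ran from Ndufab1, the mitochondrial acyl carrier protein, at 7.82, to Ndufa4 at 482.9. Ndufa4 is counted here with complex I by its name, though its protein is now assigned to complex IV. In complex II all 4 subunits lay close together, from Sdhb at 180.5 to Sdhd, a membrane anchor, at 322.2. Complex III ran from Uqcrb at 102.2 to Uqcrh at 479.1, and complex IV from Cox6b2 at 4.99 to Cox4i1, a subunit needed for assembly of the enzyme, at 971.4. Complex V held the highest level of all subunits, Atp5b, the catalytic beta subunit, at 1252, and its lowest was Atp5l at 16.2.

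Some low levels coincided with sequence shared with other genes. In the GENCODE M21 transcripts, 84.8% of the 50-base words of Atp5l were also found in transcripts of other genes. Another 22 of the 85 genes shared 10 to 50% of their words, and 62 shared at most 10%. The median of mean FPKM was 95.78 in the group of 22 and 159.1 in the group of 62. Levels of genes with shared words are uncertain, since the authors' counting may have split or dropped such reads. Cox7a1, Cox7a2, Cox6b2 and Ndufaf6 shared 0.0% and overlapped no exon of another gene. Exons of 29 of the 85 genes overlap another gene, and the library kit did not keep strand.

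**Figure D1:**
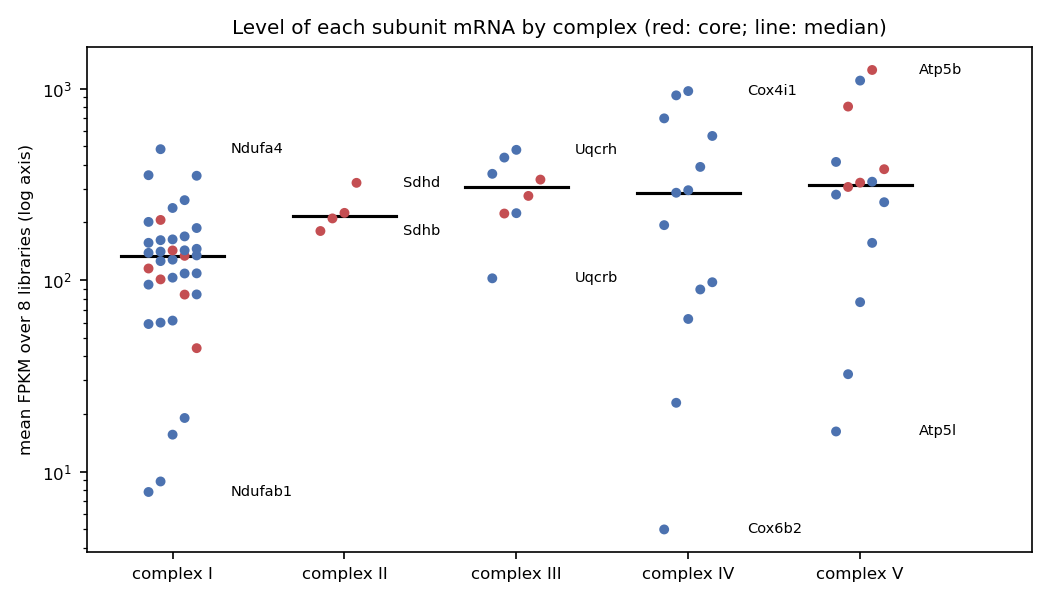
Mean FPKM over the 8 libraries (log axis) of each of the 76 subunit genes, by complex, with core subunits in red, all others in blue and the median as a line. Genes at the highest and lowest level are named, from Cox6b2 at 4.99 to Atp5b at 1252.

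One isoform dominated most of the subunit families with several genes. Atp5g1, Atp5g2 and Atp5g3 encode the same mature c subunit of the ATP synthase ring, and Atp5g3 gave 96.8 to 97.4% of their summed FPKM in each library. Of the words compared above, Atp5g2 shared 38.3% with transcripts of other genes, Atp5g1 11.1% and Atp5g3 0.0%. Exons of Atp5g2 also overlap another gene. The low levels of Atp5g1 and Atp5g2, and with them the share of Atp5g3, are therefore uncertain. Cox6b1 gave at least 98.4% of the Cox6b sum. Cox6a1, which shared 12.3% of its words with other genes, gave at least 99.8% of the Cox6a sum. Cox7a was the exception, with Cox7a1 at 26.2%, 32.1% and 30.9% of the pair's FPKM in the BRAF libraries. Cox7a1 is best known as the isoform of heart and skeletal muscle.

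Ndufs5, an accessory subunit of complex I, was well above 0 in some libraries and near 0 in others, in every group. Its FPKM was 41.3, 37.3 and 0.286 in BRAF, 25.7, 0.212 and 23.4 in SMAD4KO_BRAF, and 0.0302 and 24.2 in CDX2KO_BRAF. Each group thus held 1 library near 0, and the SE of its log2 differences was 1.92 to 2.15. A share of 21.7% of its 50-base words occurred in other genes' transcripts. No statement about Ndufs5 between groups can be made from these values.

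The first comparison, SMAD4KO_BRAF against BRAF, asks what loss of Smad4 adds to the activated kinase. No oxidative phosphorylation gene passed the threshold of the test in this comparison, which does not show that none changed. Values of most subunit genes were nevertheless lower on average in SMAD4KO_BRAF, in all 5 complexes. The lowest adjusted p belonged to core subunits, Ndufs1 of complex I and Uqcrfs1 of complex III. The test was limma on log2(FPKM + 1), with p-values adjusted by the Benjamini-Hochberg method over the 12084 genes tested. It called 0 of the 85 genes lower and 0 higher at an adjusted p of 0.05, against 0.0497% and 0.0248% of all genes tested (0.0745% in either direction). At an unadjusted p of 0.05, 5 of 85 were lower, against 9.05% of all genes tested, and 0 were higher, against 6.07%. Of the 85 differences, 79 were below 0, against 51.8% of all genes tested, and without BRAF library 2 the count was 71. The groups did not overlap for 9 genes, each lower in SMAD4KO_BRAF, against 10.4% of all genes tested in that direction and 8.99% in the other. The share of 9 in 85 was near that background.

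Ndufs1 carries iron-sulphur clusters at the entry of complex I. Its FPKM was 96.9, 83.1 and 113 in BRAF and 78.2, 68.9 and 73.1 in SMAD4KO_BRAF. All SMAD4KO_BRAF values lay below all BRAF values, with a difference of log2 -0.40 ± 0.13 (SE, adjusted p = 0.279). Uqcrfs1, the Rieske iron-sulphur protein of complex III, had 262.5, 213 and 326 in BRAF and 201, 167 and 185 in SMAD4KO_BRAF. Again the groups did not overlap, and the difference was log2 -0.52 ± 0.18 (adjusted p = 0.279). Sdhb had 220.1, 177 and 274 in BRAF and 174, 129 and 168 in SMAD4KO_BRAF. The gap between the groups was narrow, and the difference was log2 -0.50 ± 0.19 (adjusted p = 0.302). Sdhc and Sdhd, Cox6b2, and Atp5a1, Atp5g1 and Atp5o were the other subunit genes whose groups did not overlap. None of these 9 genes passed the threshold, and their differences lay within what the test could not separate from the spread of 3 libraries a group.

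By complex, the median log2 difference from BRAF was -0.26 in complex I, -0.39 in complex II, -0.33 in complex III, -0.31 in complex IV and -0.32 in complex V. The same median was -0.14 over the 9 genes that are no subunits and -0.01 over all genes tested. Over the 796 other genes with a mean FPKM of at least 100, which are nearer in level, it was -0.21, and over the 57 oxidative phosphorylation genes at that level it was -0.30. Since a library moves all complexes together, gaps between complexes were read inside each library, for all 10 pairs, after the values were seen. The median of complex II minus that of complex I was -0.009, 0.011 and -0.042 in BRAF and -0.22, -0.138 and -0.134 in SMAD4KO_BRAF. Complex II thus lay lower against complex I in every SMAD4KO_BRAF library than in any BRAF library. Complex V minus complex II was 0.033, -0.044 and 0.027 in BRAF and 0.135, 0.159 and 0.086 in SMAD4KO_BRAF, again without overlap. The gaps of the other 8 pairs overlapped between these groups. Complex II rests on 4 genes and is part of both gaps without overlap, which are therefore not independent. These gaps are a description with no test.

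The libraries moved as wholes. Relative to the BRAF mean, the median subunit stood at log2 -0.01, -0.24 and 0.24 in the BRAF libraries. It stood at -0.09, -0.50 and -0.28 in those of SMAD4KO_BRAF. SMAD4KO_BRAF library 0 lay above BRAF library 1, so the groups overlapped. BRAF library 2 had the highest value of all 8 libraries for 67 of the 76 subunit genes, and SMAD4KO_BRAF library 1 had the lowest for 51. Low-value steps put BRAF library 2 at 1.46 times the depth of BRAF library 0, the deepest of the 8, and the part of depth in its values was not tested. Without BRAF library 2 the median over all 85 genes was -0.15, and without SMAD4KO_BRAF library 1 it was -0.17, in place of -0.26. Within a library the 5 complex medians spanned 0.093 (BRAF library 2) to 0.303 (SMAD4KO_BRAF library 0). Under quantile normalization 59 of the 85 differences were below 0 and the median was -0.08. All 10 enterocyte markers also had a lower mean in SMAD4KO_BRAF, none of them past the threshold. Their summed FPKM was 29900, 13860 and 16250 in BRAF and 20710, 9018 and 7005 in SMAD4KO_BRAF, and their part in the subunit values was not tested.

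**Figure D2:**
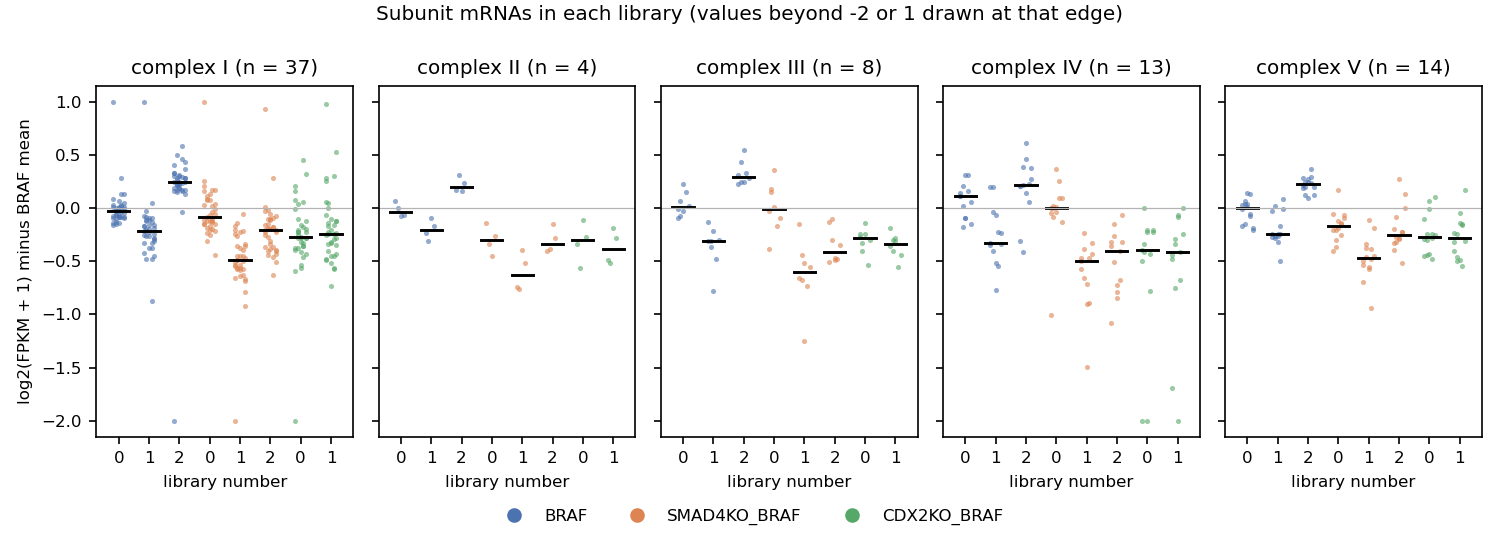
Each point is a subunit gene in 1 library, as log2(FPKM + 1) minus the mean of the 3 BRAF libraries, by complex, with the library median as a line and points beyond -2 or 1 drawn at that edge. In every complex BRAF library 2 has the highest median and SMAD4KO_BRAF library 1 the lowest, and the 5 panels share this pattern.

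Complex IV made up a varying share of subunit mRNA. Its 13 genes gave 26.7%, 22.7% and 24.8% of summed subunit FPKM in BRAF, 27.5%, 23.1% and 21.9% in SMAD4KO_BRAF, and 22.8% and 23.4% in CDX2KO_BRAF. The higher shares were in both male libraries and BRAF library 2. Cox6a1 and Cox8a, a pair of small nuclear subunits, followed this split among the BRAF and SMAD4KO_BRAF libraries. Cox8a stood at 760.2, 358 and 842 in BRAF and 792, 327 and 341 in SMAD4KO_BRAF. Its CDX2KO_BRAF values, 532 and 579.5, lay between the higher and the lower of these. Uqcrq of complex III followed the same split in BRAF, at 456, 227 and 571, and in SMAD4KO_BRAF, at 502, 163 and 281. These splits ran across the groups and were not tested. Summed FPKM of 5 T cell markers was 20.9, 570 and 102 in BRAF and 32.3, 97.7 and 290 in SMAD4KO_BRAF. It was 6.7 and 38.2 in CDX2KO_BRAF, and the part of these markers in the splits was not tested. The share of complex I ranged over the libraries from 26 to 28.6%, that of complex II from 4.33 to 5.38%, that of complex III from 12 to 13.6% and that of complex V from 27.2 to 31.9%.

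The second comparison set the libraries labelled CDX2KO_BRAF against BRAF. The tissue-restricted complex IV subunits Cox7a1 and Cox6b2 fell, and so did Ndufaf6, an assembly factor of complex I. Most other subunit genes had a slightly lower mean, with values that did not pass the test. limma called 3 of the 85 genes lower, against 7.21% of all genes tested, and 0 higher, against 6.89%, where an unadjusted p of 0.05 also gave 0 higher, against 14.6%. At that unadjusted p, 13 of 85 were lower, against 14.2% of all genes tested, a share near the background. Of the 85 differences, 75 were below 0, against 47.4% of all genes tested, and 64 were without BRAF library 2. Groups did not overlap for 40 genes in the lower direction, against 22.7% of all genes tested, and for 1 gene (Ndufaf7, chosen for mention after its values were seen) in the higher direction, against 25.7%. All 4 genes of complex II were among the 40, as were 17 of 37 in complex I, 4 of 8 in complex III, 6 of 13 in complex IV and 7 of 14 in complex V.

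Cox7a1 had an FPKM of 138, 141 and 163 in BRAF and of 34.5 and 20.04 in CDX2KO_BRAF. SMAD4KO_BRAF stood at 148, 51.5 and 84.7, with 1 library among the BRAF values and 2 between the groups. Both CDX2KO_BRAF libraries were below the other 6. From 147 ± 13.5 (SD, n = 3) in BRAF to 27.3 ± 10.2 (n = 2), Cox7a1 fell, with a log2 difference of -2.43 ± 0.42 (SE). Its adjusted p was 0.0109, and it ranged from 0.00215 to 0.0958 under other settings. The call was lost without CDX2KO_BRAF library 1, at log2 -2.06 and an adjusted p of 0.0958. Against SMAD4KO_BRAF the log2 difference was -1.68 ± 0.42 (adjusted p = 0.0445, ranging from 0.0187 to 0.228), and the call held under 7 of 18 alternatives.

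Its partner Cox7a2 had 389.8, 298 and 364 in BRAF, 372, 252 and 263 in SMAD4KO_BRAF and 203 and 218 in CDX2KO_BRAF. Those last values were the lowest of the 8, yet the difference from BRAF, log2 -0.73 ± 0.21, did not pass (adjusted p = 0.0653). Cox7a1 as a share of the pair was 29.7% ± 3.13 (SD, n = 3) in BRAF, 23.3% ± 5.81 (n = 3) in SMAD4KO_BRAF and 11.5% ± 4.34 (n = 2) in CDX2KO_BRAF. Library by library it was 28.4%, 17.0% and 24.4% in SMAD4KO_BRAF and 14.6% and 8.43% in CDX2KO_BRAF. Neither of the CDX2KO_BRAF shares reached the lowest value of another group. Markers of mesenchyme and smooth muscle (6 genes, none at 0 in any library) summed to an FPKM of 1.75, 43.1 and 9.46 in BRAF, 0.708, 9.44 and 17.1 in SMAD4KO_BRAF, and 0.529 and 3.95 in CDX2KO_BRAF. The part of these markers in the Cox7a1 values was not tested.

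Cox6b2, best known from testis, had low levels throughout, at 9.004, 9.63 and 6.45 in BRAF, 3.601, 5.68 and 3.39 in SMAD4KO_BRAF and 0.276 and 1.87 in CDX2KO_BRAF. The 3 groups did not overlap one another. From BRAF to CDX2KO_BRAF it fell, with a log2 difference of -2.27 ± 0.36 (adjusted p = 0.00823, ranging from 0.00593 to 0.0387), and it passed under all 18 alternatives. Against SMAD4KO_BRAF it was log2 -1.42 ± 0.36 (adjusted p = 0.0482, 0.0346 to 0.231), and it held under 5 of 18. The difference between SMAD4KO_BRAF and BRAF, log2 -0.85 ± 0.33, did not pass (adjusted p = 0.301). Cox6b2 was between 0.0424 and 1.58% of the Cox6b sum, so the level of Cox6b1 set that of the pair. Cox6b1 differed by log2 -0.23 ± 0.26 between CDX2KO_BRAF and BRAF (adjusted p = 0.579).

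Ndufaf6 had 11.0, 9.82 and 10.9 in BRAF, 10.2, 9.53 and 7.58 in SMAD4KO_BRAF and 7.36 and 5.35 in CDX2KO_BRAF. Both CDX2KO_BRAF values were the lowest of the 8. The log2 difference from BRAF was -0.66 ± 0.17 (adjusted p = 0.0413), and it was called under 8 of 18 alternatives, with adjusted p from 0.0179 to 0.23. It was lost without either CDX2KO_BRAF library or any single BRAF library, with values from 0.059 to 0.23. It was lost, too, without SMAD4KO_BRAF library 1 (adjusted p = 0.0606). The other 8 genes that are no subunits had no call.

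Several genes stayed above the threshold with an adjusted p under 0.1. Ndufa4 had 511, 502 and 616 in BRAF and 374 and 324 in CDX2KO_BRAF, which did not overlap (log2 -0.63 ± 0.18, adjusted p = 0.0606). Ndufa1, an accessory subunit at the membrane arm of complex I, differed by log2 -0.53 ± 0.15 (adjusted p = 0.0609). For Ndufa11, another membrane-arm subunit, the values were log2 -0.51 ± 0.15 (adjusted p = 0.0735), for Ndufa5, an accessory subunit, log2 -0.41 ± 0.13 (adjusted p = 0.0769), and for Atp5o, in the stalk of the ATP synthase, log2 -0.51 ± 0.17 (adjusted p = 0.0953). The 7 core subunits of complex I ran from log2 -0.04 for Ndufv2 to -0.39 for Ndufv1, none of them called. Their median was log2 -0.28, beside -0.27 over the 30 other subunits of complex I. Core subunits of complex V ran from log2 -0.30 for Atp5a1 to 0.14 for Atp5e, also uncalled.

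The medians by complex were log2 -0.28 in complex I, -0.34 in complex II, -0.31 in complex III, -0.37 in complex IV and -0.26 in complex V. That of the 9 genes that are no subunits was -0.08, that of all genes tested 0.02, and that of the 796 other genes with a mean FPKM of at least 100 was -0.004. Over the 57 genes of oxidative phosphorylation at that level it was -0.30. Inside libraries, the median of complex V minus that of complex IV was -0.113, 0.083 and 0.016 in BRAF and 0.129 and 0.136 in CDX2KO_BRAF. Complex IV minus complex I was 0.137, -0.116 and -0.031 in BRAF and -0.124 and -0.169 in CDX2KO_BRAF. By both gaps complex IV lay lower in CDX2KO_BRAF without overlap, for the second gap narrowly. Of the 10 pairs, complex V minus complex II also did not overlap and was higher in CDX2KO_BRAF. None of these gaps was tested. The pairs share complexes, so the 3 of 10 without overlap are not independent of one another. Both CDX2KO_BRAF libraries had a subunit median of -0.28 and -0.29, below all 3 BRAF libraries and above SMAD4KO_BRAF library 1. Without BRAF library 2 the median over the 85 genes moved from -0.28 to -0.15. This comparison and the first share the BRAF libraries, so a high BRAF library lowers both. All 10 enterocyte markers had a lower mean in the same comparison, 6 of them called, with summed FPKM of 8811 and 3927 in CDX2KO_BRAF. All 3 tuft cell markers were called higher. Of 4 Paneth markers 3 had a lower mean, 2 of them called. Summed Paneth FPKM was 3056, 2883 and 4839 in BRAF and 1444 and 806.2 in CDX2KO_BRAF. All 3 enteroendocrine markers had a lower mean, 1 of them called. Over all genes tested, limma called 7.21% lower and 6.89% higher. The part of these markers in the subunit values was not tested.

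**Figure D3:**
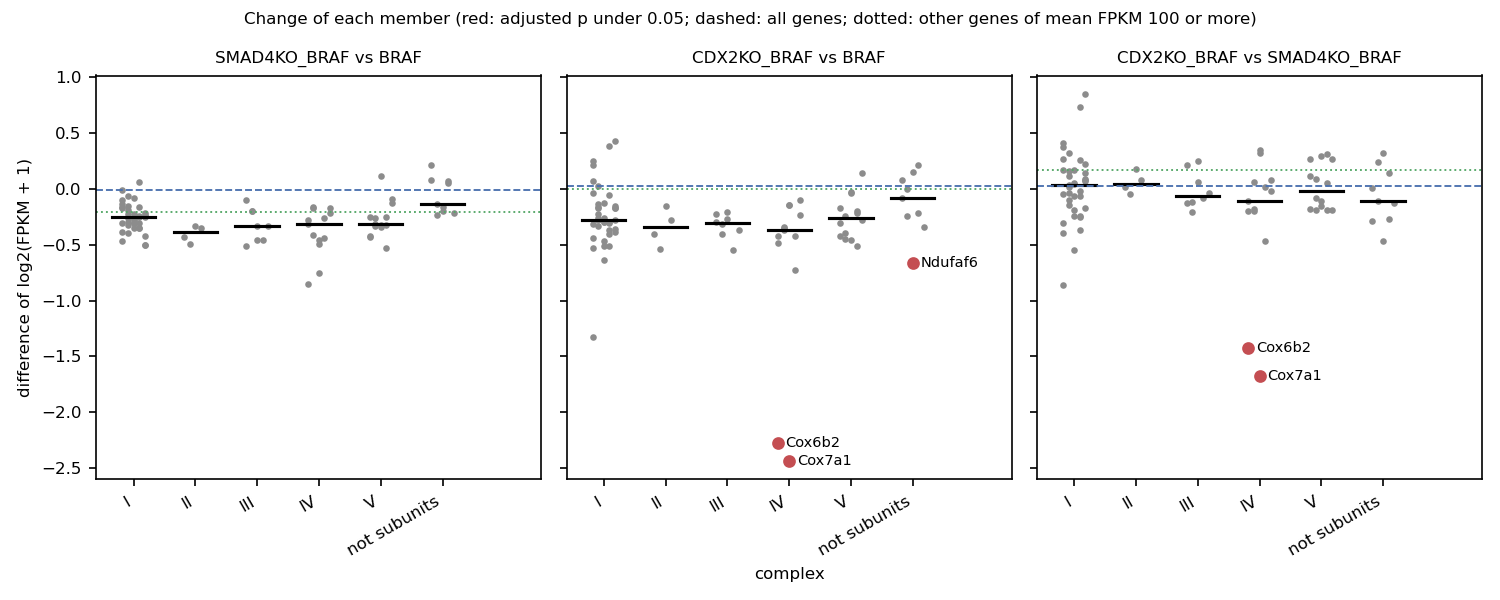
Differences of log2(FPKM + 1) for the 85 genes in each of 3 comparisons, by complex, with the median of each complex as a line, genes at an adjusted p under 0.05 in red, the median of all genes tested dashed and that of other genes with a mean FPKM of at least 100 dotted. Most points of the first and second panels lie between 0 and -0.5, and Cox7a1 and Cox6b2 lie apart at -2.43 and -2.27 in the second.

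The third comparison set CDX2KO_BRAF against SMAD4KO_BRAF directly. Only Cox7a1 and Cox6b2 of the 85 genes were called lower, against 5.01% of all genes tested, and 0 were called higher, against 6.6% (11.6% in either direction). At an unadjusted p of 0.05 by limma, 1 of the 85 was higher, against 15.7%, and 6 were lower, against 13.3%. Values of the rest scattered around 0, with 43 of 85 below 0, against 47.5% of all genes tested. Without SMAD4KO_BRAF library 0 that count was 32, and without library 1 it was 59. The median over the 85 genes was log2 -0.02, beside 0.02 over all genes tested. Groups did not overlap for 15 genes in the lower direction, against 22.2% of all genes tested, and for 11 in the higher direction, against 25.1%. In this comparison limma called lower 2 of 10 enterocyte, 2 of 5 crypt base, 2 of 4 Paneth and 1 of 3 enteroendocrine markers. It called 3 of 3 tuft markers higher. The shares over all genes tested were 5.01% lower and 6.6% higher. Differences lay below 0 for 8 of 10 enterocyte, 4 of 5 crypt base, 4 of 4 Paneth and 3 of 3 enteroendocrine markers. Their part in the values of the 85 genes was not tested.

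Complex medians here were log2 0.04 in complex I, 0.05 in complex II, -0.06 in complex III, -0.11 in complex IV and -0.015 in complex V. Ndufa6 had 245, 212.5 and 336 in BRAF, 266, 149.6 and 182 in SMAD4KO_BRAF and 326 and 375 in CDX2KO_BRAF. Its CDX2KO_BRAF values lay above those of SMAD4KO_BRAF, and the difference of log2 0.85 ± 0.29 did not pass (limma adjusted p = 0.1). Of these values, 326 lay among those of BRAF and 375 above all of them. The difference between CDX2KO_BRAF and BRAF, log2 0.43 ± 0.29, did not pass either (limma adjusted p = 0.371). In complex V, all 5 core subunits had a difference above 0 and 7 of 9 other subunits one below 0, none of them called. That split was chosen for mention after its values were seen. The difference between CDX2KO_BRAF and SMAD4KO_BRAF in complex IV, with sex as a term, had a median of -0.009.

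**Figure D4:**
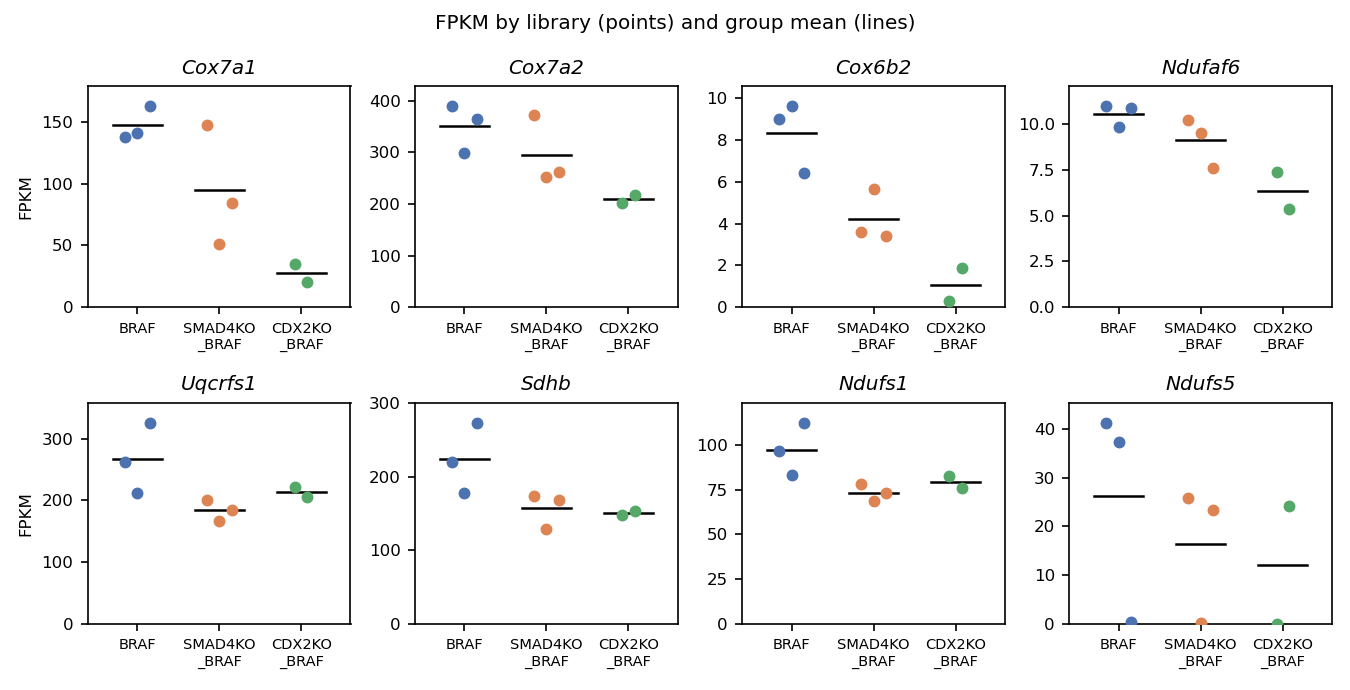
FPKM in each library (points) and group means (lines) of 8 genes, each on its own axis from 0. Cox7a1 and Cox6b2 are lowest in CDX2KO_BRAF, Ndufs1, Uqcrfs1 and Sdhb show narrow gaps between BRAF and SMAD4KO_BRAF, and Ndufs5 is near 0 in 1 library of each group.

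Other genes of mitochondrial metabolism were read from lists in the same fit. Of 35 assembly factors and electron carriers outside the name pattern, 0 were called in SMAD4KO_BRAF against BRAF by limma, with 4 lower and 1 higher at an unadjusted p of 0.05 (9.05% and 6.07% of all genes tested), and the median was log2 -0.135. Cox15, which makes heme A for complex IV, was the 1 gene of this list called lower in CDX2KO_BRAF against BRAF. It fell from 27.6 ± 1.72 (SD, n = 3) to 19.99 ± 0.348 (n = 2), by log2 -0.44 ± 0.10 (limma adjusted p = 0.0286). Of all genes tested, 7.21% were called lower there. Of 17 genes of the tricarboxylic acid cycle, 2 were called lower in the same comparison, beside that 7.21%, and the others did not pass. Cs, citrate synthase, had 378, 277 and 326 in BRAF, 191, 182.5 and 194 in SMAD4KO_BRAF and 169.9 and 161 in CDX2KO_BRAF. Every BRAF value lay above the other 5. The fall was log2 -0.97 ± 0.16 in CDX2KO_BRAF (adjusted p = 0.00869), and the difference of log2 -0.78 ± 0.14 in SMAD4KO_BRAF did not pass (adjusted p = 0.156). Mdh2, malate dehydrogenase, fell from 964 ± 187 to 439 ± 27.3 in CDX2KO_BRAF, by log2 -1.11 ± 0.26 (adjusted p = 0.0299). The list's medians were -0.35 in SMAD4KO_BRAF and -0.27 in CDX2KO_BRAF, each against BRAF. At an unadjusted p of 0.05 by limma, 7 of the 17 were lower and 0 higher in SMAD4KO_BRAF against BRAF (9.05% and 6.07% of all genes tested). In CDX2KO_BRAF against BRAF, 5 were lower and 0 higher (14.2% and 14.6% of all genes tested).

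None of 76 mitochondrial ribosome genes was called in any comparison by limma, with 4 lower and 0 higher at an unadjusted p of 0.05 in SMAD4KO_BRAF against BRAF, and 1 lower and 3 higher in CDX2KO_BRAF against BRAF (14.2% and 14.6% of all genes tested). Their medians were -0.11 and 0.03. No regulator among 13 was called either, with 1 lower at an unadjusted p of 0.05 in the first comparison and 1 higher in the second. Nrf1, which drives nuclear respiratory genes, had 9.53 ± 0.603 in BRAF (SD, n = 3), 11.1 ± 1.62 in SMAD4KO_BRAF (n = 3) and 11.4 ± 1.36 in CDX2KO_BRAF (n = 2). Ppargc1a, a coactivator of mitochondrial biogenesis, had 3.31, 4.08 and 7.57 in BRAF and 2.53, 1.69 and 2.002 in SMAD4KO_BRAF, without overlap (log2 -0.91 ± 0.30, adjusted p = 0.279). Of 14 glycolysis genes, Ldha fell by 1.06 on the log2 scale and Hk2 rose by log2 0.99 in CDX2KO_BRAF against BRAF (limma adjusted p = 0.0457 and 0.043), beside 7.21% of all genes called lower and 6.89% higher. The list's median was log2 -0.53 in SMAD4KO_BRAF and -0.29 in CDX2KO_BRAF, each against BRAF. At an unadjusted p of 0.05 by limma, 7 of the 14 were lower and 0 higher in SMAD4KO_BRAF against BRAF (9.05% and 6.07% of all genes tested). In CDX2KO_BRAF against BRAF, 4 were lower and 2 higher (14.2% and 14.6% of all genes tested).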

How the data were processed

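FPKM values for 23951 gene symbols were deposited by the authors in 1 table. Per the submitters' processing notes, TopHat2 2.1.0, Cuffnorm 2.2.1, Cuffdiff 2.2.1 and the mouse build mm9 were used. Columns could be matched to groups but not to single samples, and 3 further columns that match no sample were not used. Read counts are not in the table, so the depth is known only as rough ratios from steps of low values, and libraries' spread is the only measure of precision. The labels do not describe libraries as separate animals, so p-values measure the spread between libraries, which may be in part technical. By Y-linked genes, BRAF and SMAD4KO_BRAF each held libraries from more than 1 animal, and for CDX2KO_BRAF this is not known.

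From the deposited FPKM, log2(FPKM + 1) was fitted for all 3 groups in limma 3.58.1 (R 4.3.3), using a mean-variance trend, over the 12084 genes that reached an FPKM of 1 in 2 or more of the 8 libraries. The script was checked on simulated data. Two-sided p-values were adjusted by Benjamini-Hochberg in each comparison, with a threshold of 0.05. The log scale understates changes of low genes. The genes, lists and tests were chosen with earlier results of these data known. Named genes are those called, up to 4 with the smallest adjusted p by complex or list, those at the extremes of level, core subunits and isoform families; Ndufs5, Cox8a and Uqcrq were added after their values were seen. Promoter sequences are RefSeq's on GRCm38.p6, a build other than that of the table. Figures used matplotlib 3.10.9.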

Additional observations from a re-analysis of the deposited data

How the results depend on the processing

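Between 1 and 4 genes were called lower in CDX2KO_BRAF against BRAF when single libraries were left out, 5 with quantile normalization and 15 with library weights, in place of 3. The lowest count, 1, came without CDX2KO_BRAF library 1, which left 1 library in that group and 409 calls over all genes, in place of 1704. In CDX2KO_BRAF against SMAD4KO_BRAF the 2 calls became 1 with a pseudocount of 0.1, with a minimum FPKM of 5 and with the replicate block, 0 with no filter, with only the 2 groups compared and with sex as a term, and 0 to 1 with single libraries left out. Library weights gave 5 genes lower in SMAD4KO_BRAF against BRAF and 1 higher in CDX2KO_BRAF against SMAD4KO_BRAF. They also gave 1069, 2602 and 2447 calls over all genes in the 3 comparisons, in place of 9, 1704 and 1402. For these changes the cause was not tested.

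Medians over SMAD4KO_BRAF against BRAF shrank with quantile normalization to -0.053 in complex I, -0.148 in complex II and -0.1 in complex V. With single libraries left out, the median over the 85 genes ran from -0.379 to -0.152 in SMAD4KO_BRAF and from -0.389 to -0.152 in CDX2KO_BRAF, each against BRAF, and from -0.138 to 0.072 between them. Whether column numbers pair the libraries is not known. Deviations from group means of same-numbered libraries correlated at 0.241, -0.0474 and 0.00346 between BRAF and SMAD4KO_BRAF. Those of differently numbered libraries ran from -0.332 to 0.312. With 3 libraries a group, whose deviations sum to 0, these values cannot decide it. With the replicate block the medians were -0.262, -0.221 and 0.062. Of the values of named genes under the alternatives, 2854 kept their side of the threshold, 27 newly passed and 35 no longer passed. Of all 2916, 97 changed sign, in 41 of 162 pairs of gene and comparison. None of those 41 was called, and their differences were at most 0.244 from 0, among them Atp5e, Ndufa4 and Cox6c in SMAD4KO_BRAF against BRAF.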
